A study of Homo sapiens with 8 samples.

Results

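The 10 integrin subunits ITGA2, ITGA3, ITGA5, ITGA6, ITGAV, ITGB1, ITGB3, ITGB4, ITGB5 and ITGB8 were examined, out of 22678 genes quantified by RNA-seq in a pair of clear cell renal cell carcinoma (ccRCC) cell lines, A498 and 786-O. They were taken by name, and the level of each was the summed FPKM (fragments scaled by transcript length and by the mapped reads of the library) of its RefSeq transcript entries in each library. Integrins are the main receptors by which cells hold on to extracellular matrix. Each is a pair of membrane-spanning chains, 1 alpha and 1 beta subunit, and the pair sets which matrix protein is bound. In most integrins the short cytoplasmic tails recruit talin, kindlin and focal adhesion kinases that tie the receptor to actin. In the kidney, laminin-binding integrins anchor tubular epithelium to its basement membrane, and integrins of carcinoma cells take part in migration and invasion.

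The study silenced SLINKY, a long intergenic noncoding RNA (lincRNA), and asked how the transcriptome and the behaviour of ccRCC cells, invasion among them, responded. The paper shows its invasion assay for A498 cells only and reports no effect of knockdown on it. The 8 libraries comprised, in A498 and in 786-O alike, 2 from cells given a non-target control siRNA (NTC), 1 from cells given SLINKY siRNA #1 and 1 from cells given siRNA #2. A498 cells were grown in DMEM and 786-O cells in RPMI-1640, so cell line and medium cannot be told apart. Every cell, controls included, received Lipofectamine and an siRNA at 50 nM for 16 hr, per the labels, and no untransfected cells were analysed here. By the paper's methods RNA was isolated later than that, and cells were seeded for the invasion assay at a later time than RNA isolation. Both are established lines cultured as a monolayer on plastic, without stroma. The labels do not say whether the 2 NTC libraries of a line came from separate cultures, so their spread may be technical. The 2 knockdown libraries of a line differ in siRNA, so their spread includes any difference between the siRNAs. The p-values measure the spread between these libraries.

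Between 25071993 and 64536400 mapped reads per library were estimated from the deposited confidence intervals, and the 10 highest genes took 10.7% to 13.1% of the summed FPKM. SLINKY, read from its own entry, was at 14.6 and 16.1 FPKM in the A498 NTC libraries and at 1.64 and 3.01 FPKM with siRNA #1 and #2. In 786-O cells it was at 1.45 and 1.39 FPKM with NTC and at 0.0569 and 0.594 FPKM with the siRNAs, so it was lower in the knockdown libraries of both lines, and its NTC level was far lower in 786-O than in A498. Of 9 renal epithelial and ccRCC markers, 7 had a mean of at least 1 FPKM in each line, PAX8 among them at 40.5 FPKM in A498 and 44.4 FPKM in 786-O, while CA9 and COXFA4L2 (formerly NDUFA4L2) were under 1 FPKM in both. The leukocyte markers PTPRC and CD3E were at 0 in all 8 libraries, and the summed FPKM of 4 endothelial markers lay between 0.0230 and 0.0549. Platelet markers summed to at most 0.208 FPKM and fibroblast and pericyte markers to at most 0.762 FPKM in any library. CD68, a lysosomal protein used as a macrophage marker, differed between the lines at 142 and 3.47 FPKM, and the epithelial marker EPCAM at 0.291 and 3.97 FPKM. CDH1 and KRT5, listed with EPCAM, were near 0 in both lines, at 0.0233 and 0.00673 FPKM in A498 and at 0.00232 and 0.0102 FPKM in 786-O. Whether the CD68 and EPCAM differences had a part in any integrin difference was not tested.

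The first question was how A498 and 786-O cells differ in their integrins. On the FPKM scale A498 held more ITGA2, ITGA3, ITGA5, ITGA6, ITGAV, ITGB3, ITGB4 and ITGB5, and 786-O held more ITGB8 and slightly more ITGB1. The differences ran from a 10.0-fold higher mean level of ITGA2 in A498 to a 1.92-fold higher mean level of ITGB8 in 786-O. The ranges of the 4 libraries of each line did not overlap for any of the 10 subunits, which was also so for 75.5% of the 11367 genes with a mean of at least 1 FPKM. Of the 10, 9 met that minimum and were tested with limma on log2(FPKM + 0.1) over all 8 libraries with the knockdown as a covariate. At an adjusted p of 0.05 all 9 were called, 7 higher in A498 and 2 higher in 786-O, where 80.5% of all tested genes were called (39.1% higher in A498 and 41.4% higher in 786-O). The share called was therefore close to what these cell lines show for genes in general, and the 9 include ITGA2, which met the minimum only through A498, and ITGB8, which met it only through 786-O. The median log2 fold change of the 9, A498 over 786-O, was 0.72, beside -0.02 for all tested genes, whose median absolute log2 fold change was 0.51. Fold changes below are on the log2(FPKM + 0.1) scale, which understates the change of the lowest genes, and their p-values are limma's, adjusted by Benjamini-Hochberg over all 11367 genes.

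**Figure D1:**
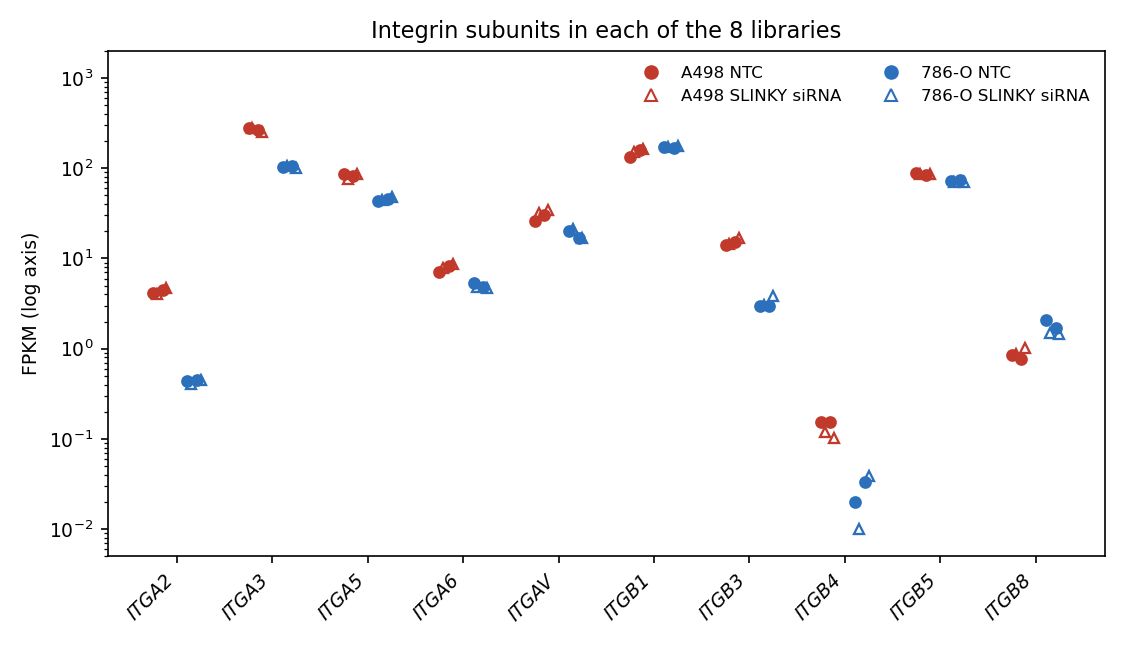
FPKM of the 10 integrin subunits on a log axis, 1 point per library; filled circles are NTC and open triangles SLINKY siRNA libraries, red for A498 and blue for 786-O. The red and blue points of each subunit do not overlap, and ITGA2 (4.05 to 4.74 against 0.407 to 0.452 FPKM) and ITGB3 (14.3 to 17.0 against 2.98 to 3.79 FPKM) lie farthest apart among the tested subunits.

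The collagen-binding chain ITGA2 (chr5:52285156-52390609, hg19, plus strand), which pairs with ITGB1, showed the widest gap of the tested subunits. It was at 4.11 and 4.52 FPKM in the A498 NTC libraries and at 4.05 and 4.74 FPKM with siRNA #1 and #2, against 0.434 and 0.445 FPKM in the 786-O NTC libraries and 0.407 and 0.452 FPKM with the siRNAs. Every A498 library stood above every 786-O library, and NTC and siRNA libraries overlapped within each line. This summed level lay almost wholly in entries that RefSeq lists as noncoding, as described below, so the gap is not one of the coding entry. The log2 fold change was 3.06 (SE 0.08, adjusted p = 2.3e-08), and 1.90 with a pseudocount of 1 FPKM. The 3 genes whose levels most resembled those of ITGA2 over the 8 libraries were DHRS4-AS1, RRAGD and CAMK2N1, each with a Pearson r above 0.999 on the log2 scale; 2931 of the 11367 genes had an r above 0.95 with ITGA2, the 8 points fall apart by cell line, and no test was made.

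The laminin receptor chains differed less. ITGA3 (chr17:48133340-48167849, plus strand), which pairs with ITGB1 to bind laminins of epithelial basement membranes, was the most abundant alpha subunit of both lines. Its level was 282 and 266 FPKM in A498 with NTC and 281 and 254 FPKM with siRNA #1 and #2, and 102 and 106 FPKM in 786-O with NTC and 105 and 102 FPKM with the siRNAs. The lines were thus 2.61-fold apart in mean level, with a log2 fold change of 1.38 (SE 0.04, adjusted p = 4.8e-08). Cufflinks marked the ITGA3 entry as failed in the libraries A498 NTC 2 and A498 siRNA #1, and without these 2 libraries the log2 fold change was 1.37. Of the A498 libraries kept, siRNA #2 had a wide deposited 95% interval, 186 to 322 FPKM, against 280 to 284 FPKM in NTC 1. That check therefore rests on 1 narrow A498 value. A second RefSeq entry over the same span, NM_005501, matched no current symbol and was left out. It was at 14.4, 5.16, 4.73 and 38.5 FPKM in the A498 libraries and at 3.89, 14.1, 10.9 and 3.94 FPKM in those of 786-O, in the same order. With it added, ITGA3 stood at 286 ± 11.2 FPKM in A498 and 112 ± 7.33 FPKM in 786-O (SD, n = 4 each).

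ITGA6 (chr2:173292314-173371181, plus strand), the other main laminin-binding alpha chain, was low in both lines. The A498 libraries held 7.13 and 8.23 FPKM with NTC and 7.89 and 8.71 FPKM with the siRNAs, and the 786-O libraries 5.38 and 4.82 FPKM with NTC and 4.77 and 4.70 FPKM with the siRNAs. A498 was higher throughout, with a log2 fold change of 0.69 (SE 0.07, adjusted p = 5.5e-05). With the highest RefSeq entry in place of the sum it was 0.35 (adjusted p = 0.047). ITGB4 (chr17:73717516-73753899, plus strand), the ITGA6 partner that links laminin to keratin filaments in hemidesmosomes, lay far under the minimum of 1 FPKM and was not tested. It was listed at 0.154, 0.154, 0.119 and 0.102 FPKM in A498 and at 0.0201, 0.0338, 0.00996 and 0.0387 FPKM in 786-O, NTC 1, NTC 2, siRNA #1 and siRNA #2 in turn. KRT8 and KRT18, keratins of simple epithelia, were at 673 and 322 FPKM in A498 and at 495 and 218 FPKM in 786-O. KRT5, another listed keratin, was near 0 in both, at 0.00673 FPKM in A498 and 0.0102 FPKM in 786-O.

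The fibronectin receptor chain ITGA5 (chr12:54789045-54813050, minus strand) was at 85.4 and 82.4 FPKM with NTC and at 76.1 and 86.9 FPKM with the siRNAs in A498. In 786-O it was at 43.1 and 45.5 FPKM with NTC and at 44.4 and 48.0 FPKM with the siRNAs. A498 cells thus carried 1.83 times the mean level of 786-O, with a log2 fold change of 0.87 (SE 0.05, adjusted p = 2.5e-06). Fibronectin itself (FN1) had the opposite order, at 27.1 ± 1.83 FPKM in A498 and 170 ± 20.6 FPKM in 786-O (SD, n = 4), a log2 fold change of -2.64 (SE 0.07, adjusted p = 2.6e-08).

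ITGAV (chr2:187454790-187545628, plus strand) is the shared alpha chain of the receptors for vitronectin, osteopontin and latent TGF-beta, and 3 of its possible beta partners, ITGB3, ITGB5 and ITGB8, were among the members. It was at 26.1 and 30.5 FPKM with NTC and at 31.7 and 34.7 FPKM with the siRNAs in A498, and at 20.2 and 16.8 FPKM with NTC and 21.0 and 16.7 FPKM with the siRNAs in 786-O. All A498 values exceeded all 786-O values, with a log2 fold change of 0.72 (SE 0.10, adjusted p = 0.00033).

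The beta partners of ITGAV went different ways. ITGB3 (chr17:45331208-45390077, plus strand), the beta chain of the classical vitronectin receptor, was at 14.3 and 15.1 FPKM with NTC and at 14.6 and 17.0 FPKM with the siRNAs in A498, against 2.98 and 2.99 FPKM with NTC and 3.02 and 3.79 FPKM with the siRNAs in 786-O. It was 4.77-fold higher in A498 by mean level, with a log2 fold change of 2.22 (SE 0.08, adjusted p = 1.2e-07). A lncRNA entry, RP11-290H9.4, begins within the ITGB3 span and extends past its end, and Cufflinks divides reads between overlapping entries. That entry was at 5.59 to 6.37 FPKM in A498 and 1.62 to 1.87 FPKM in 786-O, so it was also higher in A498.

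ITGB5 (chr3:124481795-124606144, minus strand), a further vitronectin receptor chain, differed by a small amount that passed the test. Its level was 89.4, 84.7, 85.2 and 86.8 FPKM in A498 and 72.0, 74.8, 70.4 and 69.8 FPKM in 786-O, in the order NTC 1, NTC 2, siRNA #1 and siRNA #2. The log2 fold change was 0.27 (SE 0.03, adjusted p = 0.00011), with no overlap of the ranges.

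ITGB8 (chr7:20370725-20455382, plus strand), the beta chain that with ITGAV binds latent TGF-beta, was the member with the larger of the 2 differences in favour of 786-O. It was at 0.845 and 0.773 FPKM with NTC and at 0.874 and 1.03 FPKM with the siRNAs in A498, against 2.07 and 1.71 FPKM with NTC and 1.49 and 1.47 FPKM with the siRNAs in 786-O. The log2 fold change was -0.86 (SE 0.13, adjusted p = 0.00053). The reads behind ITGB8, recovered from its deposited interval, numbered 221 to 949 per library, against 6318 to 18295 for ITGA5, and its standard error was the largest of the 9. With a pseudocount of 1 FPKM its log2 fold change was -0.51. Of the listed TGF-beta genes, TGFB1 had a log2 fold change of 0.01 (adjusted p = 0.86) and TGFB2 of -1.85 (adjusted p = 1.8e-07). Whether ITGAV with ITGB8 binds the product of either gene was not tested.

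ITGB1 (chr10:33189246-33247293, minus strand) is the beta chain shared by the collagen, laminin and fibronectin receptors above, and it stood close to level in the lines. It was at 135 and 160 FPKM with NTC and at 153 and 162 FPKM with the siRNAs in A498, and at 171 and 168 FPKM with NTC and 174 and 178 FPKM with the siRNAs in 786-O. The lowest library, A498 NTC 1, lay apart from the other A498 libraries, and all 4 were below those of 786-O. The log2 fold change was -0.19 (SE 0.05, adjusted p = 0.015).

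With the 4 NTC libraries alone, 2 per line, 8 of the 9 tested subunits were called in the same directions, where 68.9% of all tested genes were called. ITGB1, with a log2 fold change of -0.21 (95% interval -0.49 to 0.07, adjusted p = 0.13), was not. Not every alternative kept the calls of ITGA6, ITGAV and ITGB5, which were lost in 3, 4 and 4 alternatives in turn. Among these was the fit without the library 786-O NTC 2, which leaves 1 NTC library for that line. ITGB8 had a log2 fold change of -1.12 (SE 0.12, adjusted p = 0.0031) among NTC libraries.

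**Figure D2:**
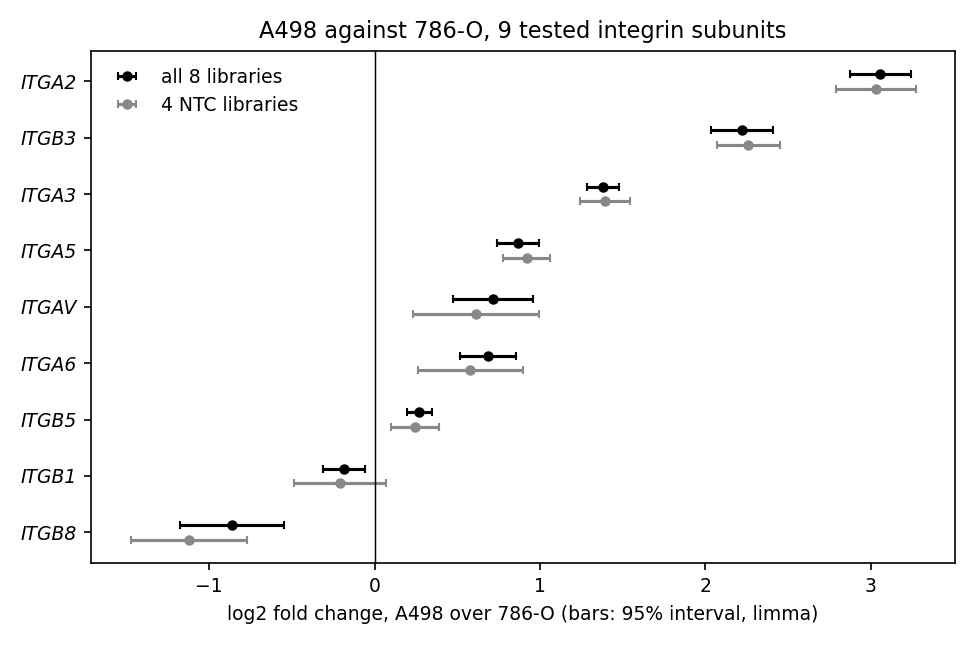
Log2 fold change of A498 over 786-O on the log2(FPKM + 0.1) scale for the 9 tested subunits, with limma's 95% interval, from all 8 libraries (black) and from the 4 NTC libraries (grey). The values run from 3.06 for ITGA2 to -0.86 for ITGB8 over 8 libraries, and only the NTC interval of ITGB1 crosses 0.

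FPKM is scaled by transcript length, so levels can be ranked between subunits. In A498 the order of mean FPKM was ITGA3, ITGB1, ITGB5, ITGA5, ITGAV, ITGB3, ITGA6, ITGA2, ITGB8 and ITGB4, and of these neighbours ITGB5 (86.5 ± 2.11 FPKM) and ITGA5 (82.7 ± 4.77 FPKM; SD, n = 4 each) had overlapping ranges. In 786-O the order was ITGB1, ITGA3, ITGB5, ITGA5, ITGAV, ITGA6, ITGB3, ITGB8, ITGA2 and ITGB4, with no overlap between neighbours. The most abundant subunit was therefore ITGA3 in A498 (271 ± 13.4 FPKM) and ITGB1 in 786-O (173 ± 4.10 FPKM). The A498 mean of ITGA3 includes the failed and wide values described above. In A498 NTC 1, where its interval was narrow, ITGA3 was at 282 FPKM and ITGB1 at 135 FPKM. ITGA2 stood 8th in A498 and 9th in 786-O, below ITGB8.

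The alpha and beta chains differed in sum. The 5 alpha subunits added up to 397 ± 7.47 FPKM in A498 and 173 ± 1.96 FPKM in 786-O, while the 5 beta subunits added up to 255 ± 11.7 FPKM and 249 ± 2.30 FPKM (SD, n = 4 each). The ratio of the alpha to the beta sum was 1.46 to 1.69 over the A498 libraries and 0.678 to 0.705 over those of 786-O. ITGA3 made up 68.2% of the alpha sum in A498 and 59.9% in 786-O, and ITGA5 20.9% and 26.2%. ITGB1 made up 59.6% of the beta sum in A498 and 69.2% in 786-O, ITGB5 34.0% and 28.8%, and ITGB3 5.97% and 1.28%. The alpha sum and ratio of A498 rest in large part on the ITGA3 values, with the limits given above. All of these are measures of transcript level and carry no measure of the receptor pairs at the cell surface.

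Several subunits have more than 1 RefSeq entry, and the division of reads between entries varied. For ITGA2 the coding entry NM_002203 was at practically 0 in all 8 libraries, and the level lay in NR_073104 and NR_073107, which RefSeq lists as noncoding transcripts of the gene. NR_073104 held from 53.6% to nearly all of the ITGA2 level over the A498 libraries, and in 786-O NTC 1 nearly all of it, 99.9%, lay in NR_073107 instead. Only the sum over entries is used for ITGA2 here, and with coding entries alone it could not be tested. ITGA6 has 2 entries, and NM_000210 took 39.9% of its level in A498 (22.0% to 53.3%) and 22.7% in 786-O (15.5% to 31.9%), ranges that overlap.

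**Figure D3:**
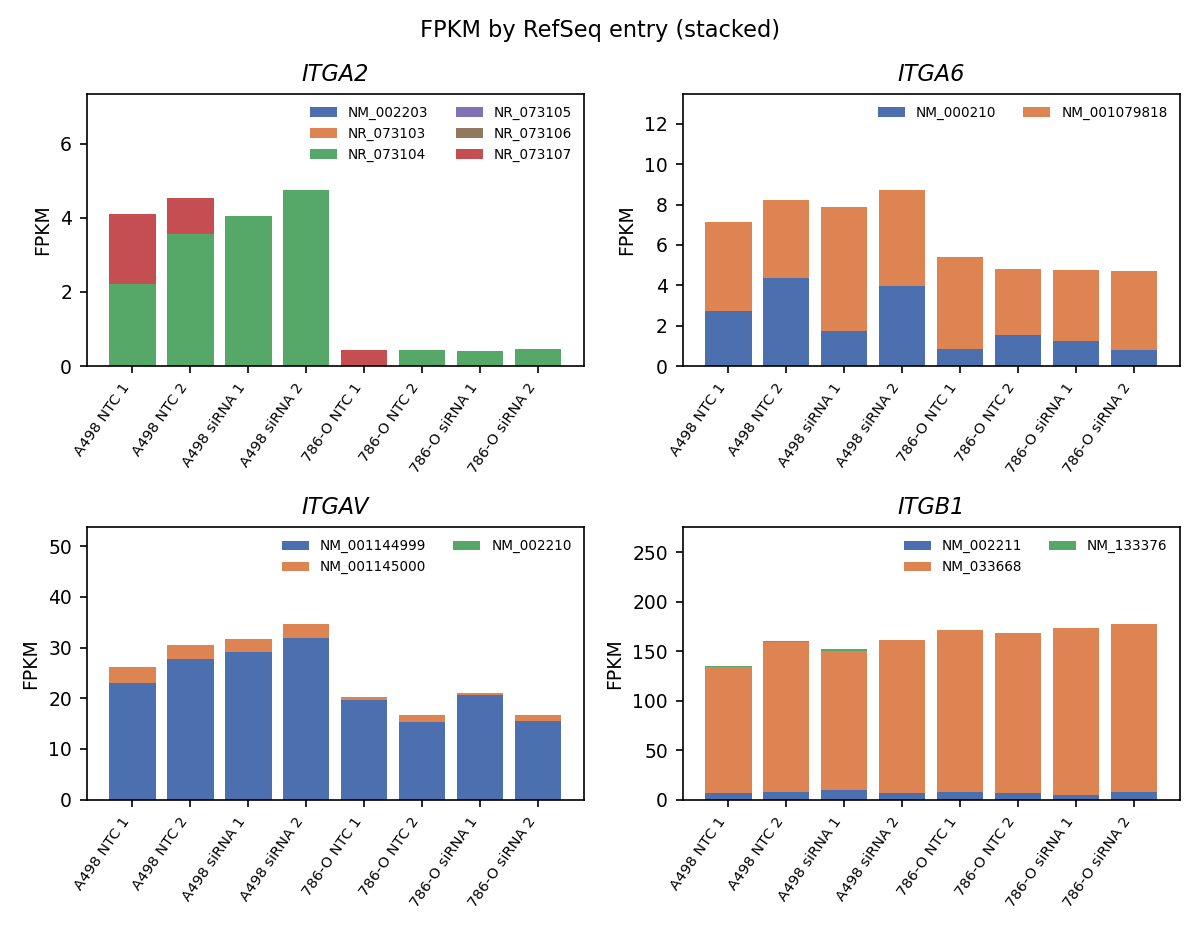
FPKM of ITGA2, ITGA6, ITGAV and ITGB1 in each library, stacked by RefSeq entry. The ITGA2 level moves between NR_073104 and NR_073107 while its sum is steady within a line, and ITGB1 lies mostly in NM_033668 (92.1% to 97.2% over the 8 libraries).

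ITGB1 and ITGAV each had most of their level in an entry that starts within the gene. NM_033668 held 94.1% of ITGB1 in A498 and 95.9% in 786-O, and NM_002211, which starts at the outer end of the gene, held 5.18% and 3.97%. NM_001144999 held 90.8% of ITGAV in A498 and 95.05% in 786-O, and NM_001145000 held 9.17% and 4.95%. Reads were 36 bp long, and how far this division reflects the transcripts made was not tested. The 250 bases before each of these starts (hg19) are shown because they contrast in base composition within a gene. Capitals mark matches, on either strand, to the GC box GGGCGG, the E-box CACGTG, the AP-1 site TGACTCA and the TATA box TATAAA. For ITGB1 the outer start, chr10:33247294-33247543, and the inner start, chr10:33224487-33224736, both read on the minus strand, are
ITGB1 outer start, NM_002211: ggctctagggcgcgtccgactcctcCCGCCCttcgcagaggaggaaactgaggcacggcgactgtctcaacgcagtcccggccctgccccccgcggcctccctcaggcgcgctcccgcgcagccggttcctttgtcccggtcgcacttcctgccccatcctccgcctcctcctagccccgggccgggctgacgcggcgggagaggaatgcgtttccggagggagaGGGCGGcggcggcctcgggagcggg
ITGB1 inner start, NM_033668: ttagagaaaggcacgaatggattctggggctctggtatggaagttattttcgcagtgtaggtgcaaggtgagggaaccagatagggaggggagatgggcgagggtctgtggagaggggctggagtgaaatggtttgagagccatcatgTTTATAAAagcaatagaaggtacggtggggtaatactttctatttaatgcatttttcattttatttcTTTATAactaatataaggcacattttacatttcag
and for ITGAV the outer start, chr2:187454540-187454789, and the inner start, chr2:187464682-187464931, both on the plus strand, are
ITGAV outer start, NM_001145000: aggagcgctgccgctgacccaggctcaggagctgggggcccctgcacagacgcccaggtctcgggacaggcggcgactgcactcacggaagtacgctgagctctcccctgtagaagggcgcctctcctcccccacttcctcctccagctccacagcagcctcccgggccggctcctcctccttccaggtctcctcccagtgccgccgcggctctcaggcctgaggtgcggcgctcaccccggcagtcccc
ITGAV inner start, NM_001144999: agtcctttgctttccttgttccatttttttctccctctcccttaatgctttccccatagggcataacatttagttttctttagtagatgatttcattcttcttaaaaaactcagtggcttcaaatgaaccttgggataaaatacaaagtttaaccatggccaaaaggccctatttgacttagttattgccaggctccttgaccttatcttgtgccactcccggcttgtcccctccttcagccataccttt

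The outer windows were rich in G and C, 74.0% for ITGB1 and 71.2% for ITGAV, and the inner windows held 41.6% and 40.8%, where the median over 26511 windows of the same length before the starts of all genes was 60.0%. The inner ITGB1 window was the only one of the 13 distinct member windows examined with a TATAAA match, which 9.28% of all windows hold. A GC box was present in 9 of the 13 member windows, beside 48.0% of all windows. AP-1 matched in 1 window, that of ITGB4 NM_000213, beside 3.34% of all windows, and the E-box in 0 of 13, beside 6.60%. A match describes letters only and is not a bound site. The starts are edges of annotated entries, and whether transcription begins at the inner ones was not tested.

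The starts of ITGA2 and ITGB8, the tested subunits with the largest difference in favour of each line, are given for comparison. Both are on the plus strand, at chr5:52284906-52285155 and chr7:20370475-20370724 of hg19, with capitals as above.
ITGA2, NM_002203: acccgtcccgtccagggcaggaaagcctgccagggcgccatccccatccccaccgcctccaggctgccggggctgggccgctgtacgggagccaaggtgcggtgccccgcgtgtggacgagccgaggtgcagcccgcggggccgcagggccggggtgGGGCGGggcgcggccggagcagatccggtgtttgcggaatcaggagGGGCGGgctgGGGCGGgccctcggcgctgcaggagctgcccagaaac
ITGB8, NM_002214: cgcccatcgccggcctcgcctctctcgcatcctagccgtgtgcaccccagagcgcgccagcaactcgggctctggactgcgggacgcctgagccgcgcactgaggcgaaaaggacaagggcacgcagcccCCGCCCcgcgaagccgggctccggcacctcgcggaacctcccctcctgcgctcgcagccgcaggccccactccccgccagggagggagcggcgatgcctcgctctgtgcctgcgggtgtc

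The windows held 76.4% of G and C for ITGA2 and 74.0% for ITGB8. The GC box matched 3 times in ITGA2 and 1 time in ITGB8, and neither held a match to the TATA box, the E-box or the AP-1 site.

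The second question was whether SLINKY knockdown changed the integrins. In the fit over both lines, with cell line as a covariate, 0 of the 9 tested subunits were called, and only 1 gene of 11367 was (0.0088%). By limma 1302 genes had an unadjusted p under 0.05, and none of the 9 members was among them. The log2 fold changes of the members, knockdown over NTC, ran from -0.06 for ITGB8 to 0.14 for ITGB3, with a median of 0.01, beside 0.01 for all tested genes. The SLINKY level itself was lower in each knockdown library, as given above.

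The intervals show how large a change was compatible with these libraries. ITGB5, the most precisely measured member, had a log2 fold change of -0.04 (95% interval -0.12 to 0.03, adjusted p = 0.62), and ITGA3 -0.03 (-0.12 to 0.07, adjusted p = 0.81). ITGB3 had the lowest adjusted p of the 9, 0.52, with a log2 fold change of 0.14 (-0.05 to 0.32). ITGAV was at 0.13 (-0.11 to 0.37) and ITGB1 at 0.07 (-0.05 to 0.20). ITGA2, ITGA5 and ITGA6 had log2 fold changes of -0.003, 0.007 and 0.005, with adjusted p from 0.97 to 0.99. ITGB8 had the widest interval, -0.37 to 0.26.

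**Figure D4:**
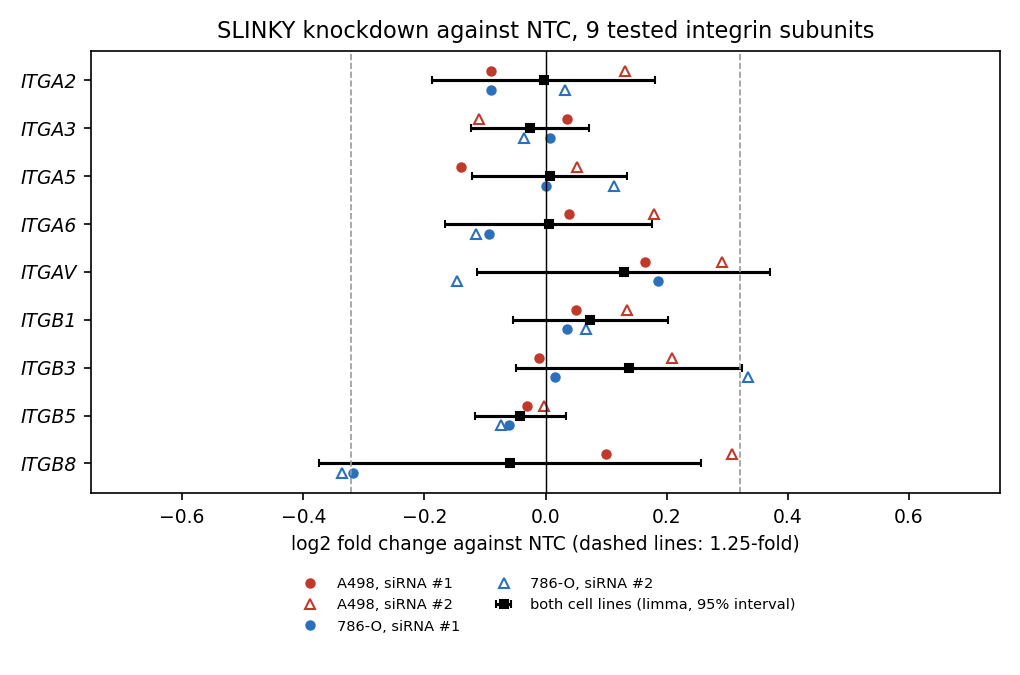
Log2 fold change of SLINKY siRNA over NTC for the 9 tested subunits. Black squares with bars are limma's estimate over both lines with its 95% interval, circles and triangles are siRNA #1 and #2 against the NTC mean of their own line, A498 (red) or 786-O (blue), and dashed lines mark 1.25-fold; all black intervals include 0.

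Within A498, 0 of the 9 subunits were called (0.176% of all tested genes), and within 786-O 0 of the 9 (0.141%). The lowest unadjusted p among the members was 0.091 in A498, for ITGAV (log2 fold change 0.23, 95% interval -0.06 to 0.53, adjusted p = 0.78), and 0.058 in 786-O, for ITGB8 (log2 fold change -0.32, 95% interval -0.66 to 0.02, adjusted p = 0.91). Over all genes limma gave an unadjusted p under 0.05 to 489 in A498 and 478 in 786-O. The NTC and siRNA ranges were apart for 2 of the 9 tested subunits in A498, ITGAV and ITGB8, both with higher siRNA values, beside 36.7% of all tested genes (20.3% higher and 16.3% lower). In 786-O they were apart for 5 of the 9, beside 32.6% (18.9% higher and 13.8% lower), with ITGB1 and ITGB3 higher and ITGA6, ITGB5 and ITGB8 lower with the siRNAs. The untested ITGB4 was lower with both siRNAs in A498, at a level near 0.1 FPKM.

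The knockdown effect was also compared between the lines, as an interaction in a fit of 4 group means. No subunit was called, where 0.141% of all tested genes were. ITGB8 had the lowest unadjusted p, 0.037, for a difference in log2 fold change of 0.53 between A498 and 786-O (95% interval 0.05 to 1.01, adjusted p = 1.00), its siRNA values being the higher ones in A498 and the lower ones in 786-O. The other 8 intervals included 0.

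Because each siRNA had 1 library per line, their separate effects are given as folds, with no test. The threshold was 1.25-fold in the same direction with siRNA #1 and #2, a log2 fold change of 0.32. No member passed it in A498, where 2.38% of all tested genes did, or in 786-O, where 2.23% did. The nearest was ITGB8 in 786-O, with log2 fold changes of -0.32 with siRNA #1, just inside the threshold, and -0.34 with siRNA #2, just past it. The 2 NTC libraries of 786-O differed in ITGB8 by a log2 value of -0.26, NTC 2 minus NTC 1. ITGB3 in 786-O passed with siRNA #2 (0.34) and was at 0.02 with siRNA #1. With siRNA #1 and #2 taken singly, 5.57% and 7.41% of all tested genes passed in A498, where none of the 9 tested members did, and 7.54% and 5.77% in 786-O, where ITGB3 and ITGB8 did with siRNA #2. The untested ITGB4 was at -0.34 with siRNA #2 in A498, from levels near 0.1 FPKM. As a measure of how often 1 library departs by that much, NTC 1 and NTC 2 were past 1.25-fold of each other for 6.31% of genes in A498 and 6.12% in 786-O. For ITGAV, NTC 2 minus NTC 1 was 0.22 in A498, beside 0.16 and 0.29 with siRNA #1 and #2, and -0.27 in 786-O, beside 0.19 and -0.15.

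The other genes of the pathway were described from lists of further integrins, adaptors, regulators, membrane partners and ligands. Of 16 other integrin subunits, 5 met the minimum, and 4 of these were higher in A498 and 1 was not called. Of all tested genes 80.5% were called, 39.1% higher in A498 and 41.4% higher in 786-O. ITGA4, which binds VCAM1 and fibronectin, was at 2.99 ± 0.325 FPKM in A498 and 0.0192 ± 0.0129 FPKM in 786-O (SD, n = 4 each), a log2 fold change of 4.70 (SE 0.16, adjusted p = 8.9e-08). ITGAX and ITGB2, a pair known from myeloid cells, had log2 fold changes of 4.34 and 1.50, and ITGA1, a second collagen-binding partner of ITGB1, of 3.34. ITGAX, ITGA1 and ITGA4 met the minimum only through A498, with means of 2.39, 1.98 and 2.99 FPKM there. ITGB2 was at 4.04 FPKM in A498 and 1.37 FPKM in 786-O, beside PTPRC at 0 in all libraries and the CD68 levels given above. ITGAE, a partner of ITGB7 that binds E-cadherin, was level at 6.99 and 7.29 FPKM (log2 fold change -0.06, adjusted p = 0.27). ITGB6, a further partner of ITGAV, was at 1.62 FPKM in A498 and 0.340 FPKM in 786-O and fell under the minimum over all libraries.

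Of 24 ligands, 19 were tested, of which 10 were higher in A498 and 6 higher in 786-O, and 3 were not called. The share called over all tested genes was 80.5% (39.1% higher in A498 and 41.4% higher in 786-O). The median log2 fold change of the 19 ligands was 0.12. The 3 highest in A498 were the laminin chain LAMA5 (14.0 ± 1.11 FPKM in A498 against 0.317 ± 0.0498 FPKM in 786-O, log2 fold change 5.08), the collagen chain COL1A1 (3.30) and osteopontin, SPP1 (3.04). LAMA5 and COL1A1 met the minimum of 1 FPKM only through A498, so their place among the called genes follows in part from the filter. SPP1, a ligand of ITGAV with ITGB3, was at 1369 FPKM in A498 and 167 FPKM in 786-O. The 3 highest in 786-O were thrombospondin-1, THBS1 (6.93 ± 0.687 FPKM in A498 against 50.8 ± 5.34 FPKM in 786-O, log2 fold change -2.85), FN1 (-2.64) and CCN1 (-2.32), a matrix-associated ligand of ITGAV integrins.

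**Figure D5:**
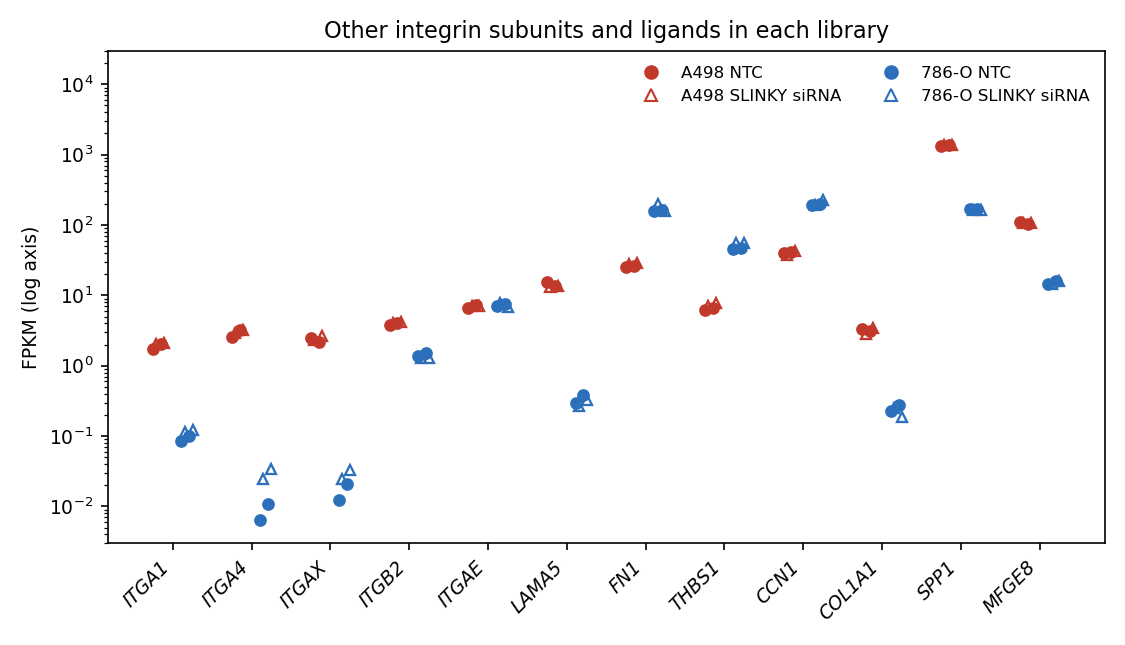
FPKM on a log axis of the 5 other integrin subunits that were tested and of 7 ligands, 1 point per library, with symbols as for the members. LAMA5, SPP1 and COL1A1 lie higher in A498 and FN1, THBS1 and CCN1 higher in 786-O; ITGAE is level at 6.99 and 7.29 FPKM.

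Among 30 adaptors and kinases that act on integrin tails, 26 were tested, 11 of them higher in A498 and 10 higher in 786-O. The remaining 5 were not called, and the median log2 fold change of the 26 was -0.06. Beside these and the lists below, 80.5% of all tested genes were called, 39.1% higher in A498 and 41.4% higher in 786-O. The kinases PTK2B (3.07) and SRC (2.48) and the adaptor TNS3 (1.92) were the 3 highest in A498 by log2 fold change, and the parvin PARVA (-2.25), the talin TLN2 (-2.24) and RSU1 (-1.33), a partner of the ILK complex, the 3 highest in 786-O. PTK2B met the minimum only through A498, at 3.13 against 0.287 FPKM, and TLN2 only through 786-O, at 2.25 against 0.398 FPKM. Focal adhesion kinase, PTK2, was not called at 18.5 and 20.5 FPKM (adjusted p = 0.057). Of 10 inactivators and trafficking genes, 8 were tested. DAB2 (0.90), DOK1 (0.76) and SNX17 (0.31) were higher in A498, and ITGB1BP1 (-0.90), which binds the ITGB1 tail and keeps the receptor inactive, and RAB21 (-0.29) were higher in 786-O. Of 10 membrane partners, 9 were tested, 6 higher in A498, led by the tetraspanin CD82 (1.70), CD47 (0.64) and the tetraspanin CD63 (0.44), and 2 higher in 786-O, CAV1 (-0.25) and BSG (-0.24). The tetraspanin CD151, a close partner of ITGA3, had a log2 fold change of 0.22 (adjusted p = 0.017).

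With SLINKY knockdown none of the tested genes of these 5 lists was called over both lines, within A498 or within 786-O. Over both lines the median log2 fold changes were 0.12 for the other integrins, 0.06 for the ligands, 0.05 for the adaptors and kinases, 0.01 for the inactivators and trafficking genes and -0.04 for the membrane partners, beside 0.01 for all tested genes. The largest value among the ligands was 0.30 for VCAM1 (adjusted p = 0.30) and among the adaptors 0.19 for vinculin, VCL (adjusted p = 0.33). The paper lists VCAM1 and SPP1 among transcripts raised past a fold threshold with both siRNAs in both lines, without limma's test. VCAM1 was at 19.5 and 22.0 FPKM with NTC and at 25.1 and 24.0 FPKM with the siRNAs in A498. In 786-O it was at 10.3 and 10.8 FPKM with NTC and at 14.1 and 13.1 FPKM with the siRNAs. SPP1, summed over its entries, showed no rise (log2 fold change -0.02, adjusted p = 0.77), and its single transcripts were not tested. Of the ligands, 14 had positive and 5 negative values. Limma gave an unadjusted p under 0.05 to VCAM1, THBS1, TNC, CCN2, LAMC1, LAMA3 and TGFB2, all higher with knockdown. Of all tested genes, 11.5% had such a p. In 786-O, CCN2 was at 12.3 and 12.4 FPKM with NTC and at 16.1 and 15.8 FPKM with the siRNAs.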

How the data were processed

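RNA-seq of total RNA (TruSeq, single-end 36 bp reads) was measured in 8 libraries. The authors mapped reads to hg19 and computed FPKM in each library with Cufflinks, and the deposited files hold this FPKM with its 95% interval; the submitters' processing notes name TopHat2 2.0.0 and Cufflinks 2.0.2. No scaling between libraries is stated, and intervals cover counting error within a library only. Of 75378 entries, 43150 are RefSeq transcripts, 96.6% of which matched a current symbol in a RefSeq gene table of another assembly used for names only; their FPKM was summed per symbol over coding and noncoding entries. The 11367 genes whose FPKM averaged 1 or more across all libraries were fitted with limma 3.58.1 (R 4.3.3, eBayes with trend) on log2(FPKM + 0.1), with Benjamini-Hochberg adjustment. The additive fit over 8 libraries gave both the cell line and the knockdown effect, so these share libraries, as the knockdown comparisons share NTC libraries. siRNA #1 and #2 served as replicates of the knockdown. The files give no counts, so count models were not fitted; mapped reads and reads per gene were estimated from the intervals. The fit was tested on simulated data.

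All 10 members were named. From each further list the 3 genes highest in each line among those called were named, with every tested other integrin and the 3 genes most like ITGA2. TGFB1, TGFB2, PTK2, CD151, ITGB6, VCAM1, VCL, TNC, CCN2, LAMC1, LAMA3 and the markers named were picked beyond that rule after their values were seen. The members, lists and tests were chosen with earlier results of these data known. Sequences were read from the GRCh37 genome at the deposited hg19 starts (pysam 0.24.0), with the strand taken from the gene annotation. Same-numbered libraries were not treated as pairs. One gene of the ligand list and one start window are not reported here.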

Additional observations from a re-analysis of the deposited data

How the results depend on the processing

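Over 8 libraries all tested members kept the direction and call of their cell line difference under every alternative in which they could be fitted, but sizes moved: ITGA6 fell from 0.69 to 0.35 (adjusted p = 0.047) with the highest entry per symbol, and with a pseudocount of 1 ITGA2 fell from 3.06 to 1.90 and ITGB8 moved from -0.86 to -0.51. These alternatives were other pseudocounts (0.01 and 1), filters (none or a mean of at least 5 FPKM), scaling by the median ratio, the highest entry per symbol, leaving out genes that span under 200 bp, a replicate block, 4 group means, leaving out each library, and 3 chosen after seeing the data (coding entries only, the further ITGA3 entry, and leaving out both libraries with a failed ITGA3 entry). Without a filter ITGB4 was also called, and with coding entries alone ITGA2 could not be fitted. Among NTC libraries the number of members called, 8, was 5 to 7 when 1 library was left out, 6 with the highest entry, 7 with the replicate block and 9 without short genes, where ITGB1 passed.

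No member was called for the knockdown or the interaction under any alternative, but the few genes called in all were unstable, and the cause was not tested. Over both lines the 1 gene became 0 without short genes or with coding entries only, 19 with an effect for each line, 1 to 3 with 1 library left out and 5 without both ITGA3 failures. The 20 in A498 became 11 with a pseudocount of 1, 0 without a filter, 13 with a filter of 5 FPKM or 4 group means, 3 without short genes and 48 to 61 with 1 library left out. The 16 in 786-O became 5 without a filter, 0 without short genes, 9 with 4 group means and 29 to 41 with 1 library left out. The 16 of the interaction became 7 with a pseudocount of 0.01, 27 without a filter, 5 with a filter of 5 FPKM, 1 without short genes and 28 to 38 with 1 library left out. A fit that leaves a group with 1 library assumes that it varies like the others.

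Members past 1.25-fold with both siRNAs rose from 0 to 1 in A498 with the highest entry per symbol, and in 786-O with a pseudocount of 0.01, with median-ratio scaling and without NTC 2 (0 to 1 over the libraries left out). Signs of uncalled knockdown changes near 0 turned. ITGA2 had 0.0043 with a pseudocount of 1, 0.30 with the highest entry and 0.048 without both ITGA3 failures, and median-ratio scaling gave -0.0056 for ITGA5 and -0.0070 for ITGA6. With 1 library, or both ITGA3 failures, left out the ranges were -0.053 to 0.048 for ITGA2, -0.060 to 0.0059 for ITGA3, -0.026 to 0.055 for ITGA5, -0.057 to 0.058 for ITGA6 and -0.15 to 0.046 for ITGB8.

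Same-numbered NTC and siRNA libraries did not deviate together (r of -0.005 in A498 and 0.006 in 786-O over all tested genes). Without genes that span under 200 bp r was 0.17 in A498 and 0.02 in 786-O, so not every pair deviated together and the numbers were not taken to pair the libraries. With it the calls were 0 in A498, 4 in 786-O and 10 for the interaction, and ITGB5 no longer passed among NTC libraries (log2 fold change 0.24). ITGB4 was too low to test, and FPKM from Cufflinks carries its division of reads between entries.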
